A study of Homo sapiens with 24 samples.

Results

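Messenger RNA of 46 cell cycle genes, 28 that act in mitosis and 18 that act in DNA replication (S phase), was examined in cells labelled SH-SY5Y, a human neuroblastoma line. The genes were given as a list of symbols, and each matched 1 of the 60658 genes in the deposited count tables. The study depleted the circular RNA ciRS-7 (also called CDR1as) in 4 setups and compared each knockdown (KD) with a non-targeting control (NTC) of the same setup, to look for unintended changes of messenger RNA. The agoshRNA setup used a transfected vector for a hairpin RNA. For gRNA and pre-gRNA, cells received 2 plasmids by lipid transfection, 1 for the RNA-targeting nuclease CasRx joined to GFP and 1 for a guide RNA or its precursor. For syn-gRNA the guide was made by chemical synthesis, and its delivery is not described in the labels. RNA was taken 48 h after transfection. Each of the 8 groups had 3 libraries, 24 in all, which the column names distinguish by the letters A, B and C. The labels do not say what a letter stands for, nor whether the libraries of a group came from separate cultures, so p-values measure the spread between these libraries, which may be technical.

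Cells copy their DNA in S phase and divide it in mitosis, and the genes for these steps are switched on in 2 waves. Before S phase the factors of the E2F family raise genes for origin licensing, the MCM helicase and nucleotide supply. The DREAM complex represses genes for cyclin B, mitotic kinases and spindle proteins through promoter elements named CHR, and later a complex of B-MYB and MuvB together with FOXM1 activates them, while NF-Y acts at CCAAT boxes in the same promoters. In a growing cell line the summed messenger RNA of such genes is widely used as a measure of proliferation, and neuroblastoma lines in culture express them strongly.

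The windows of 300 bases around the start of 6 of the genes are shown. Those of CCNB1, CDC20 and E2F1 were planned, and those of KIF20A, CCNB2 and MCM2 were added after values were seen. KIF20A and CCNB2 are genes called between setups below. The windows come from RefSeq (GRCh38.p14) and run from 250 bases before the start to 50 after it. They are written 5′ to 3′ on the gene's strand. Capitals mark matches on either strand to TTTGAA (a core of the CHR), CCAAT, and TTTCGCGC, TTTGGCGC or TTTCCCGC (cores of E2F sites). CCNB1 (chr5:69166900-69167199, plus strand) and CCNB2 (chr15:59104896-59105195, plus strand) encode the B-type cyclins that drive entry into mitosis, KIF20A (chr5:138178862-138179161, plus strand) a kinesin of cytokinesis, and CDC20 (chr1:43358731-43359030, plus strand) an activator of the anaphase-promoting complex. MCM2 (chr3:127598161-127598460, plus strand) is a subunit of the replicative helicase and E2F1 (chr20:33686336-33686635, minus strand) an activator of S-phase genes.
CCNB1: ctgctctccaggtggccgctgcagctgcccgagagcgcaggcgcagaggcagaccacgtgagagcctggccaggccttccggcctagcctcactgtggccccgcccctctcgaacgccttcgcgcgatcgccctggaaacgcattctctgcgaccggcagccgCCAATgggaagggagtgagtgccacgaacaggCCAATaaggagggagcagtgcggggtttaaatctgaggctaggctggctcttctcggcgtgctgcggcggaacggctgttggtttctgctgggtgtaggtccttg
CCNB2: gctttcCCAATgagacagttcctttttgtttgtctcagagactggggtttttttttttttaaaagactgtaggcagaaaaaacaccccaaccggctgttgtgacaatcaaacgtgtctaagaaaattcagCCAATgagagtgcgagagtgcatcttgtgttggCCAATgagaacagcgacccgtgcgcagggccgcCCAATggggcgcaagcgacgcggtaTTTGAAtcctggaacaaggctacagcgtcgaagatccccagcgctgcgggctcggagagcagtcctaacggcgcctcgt
KIF20A: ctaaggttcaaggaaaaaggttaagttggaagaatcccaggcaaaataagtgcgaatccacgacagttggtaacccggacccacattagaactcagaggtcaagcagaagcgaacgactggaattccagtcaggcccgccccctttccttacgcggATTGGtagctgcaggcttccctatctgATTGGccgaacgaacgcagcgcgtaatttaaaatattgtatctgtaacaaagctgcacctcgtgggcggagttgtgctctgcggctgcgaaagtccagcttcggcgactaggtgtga
CDC20: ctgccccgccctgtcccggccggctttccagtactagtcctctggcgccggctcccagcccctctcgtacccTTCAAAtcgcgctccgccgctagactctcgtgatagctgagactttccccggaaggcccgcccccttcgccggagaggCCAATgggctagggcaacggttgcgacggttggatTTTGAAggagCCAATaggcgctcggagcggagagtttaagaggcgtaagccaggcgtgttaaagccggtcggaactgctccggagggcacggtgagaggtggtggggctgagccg
MCM2: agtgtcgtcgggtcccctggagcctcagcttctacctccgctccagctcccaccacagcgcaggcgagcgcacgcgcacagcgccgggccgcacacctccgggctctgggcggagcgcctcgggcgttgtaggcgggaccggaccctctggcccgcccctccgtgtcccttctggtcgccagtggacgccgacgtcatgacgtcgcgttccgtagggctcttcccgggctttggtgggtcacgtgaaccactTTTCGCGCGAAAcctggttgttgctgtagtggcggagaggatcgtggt
E2F1: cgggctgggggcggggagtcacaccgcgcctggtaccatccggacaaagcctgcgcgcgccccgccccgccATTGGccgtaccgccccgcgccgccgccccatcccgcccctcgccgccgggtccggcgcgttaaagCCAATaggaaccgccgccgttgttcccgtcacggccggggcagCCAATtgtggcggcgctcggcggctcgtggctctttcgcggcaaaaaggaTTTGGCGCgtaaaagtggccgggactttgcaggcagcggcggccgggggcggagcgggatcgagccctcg
Of the 46 genes, 37 had at least 1 window in the table (22 mitotic, 15 S-phase). TTTGAA occurred in 17 of 24 mitotic windows (16 of the 22 genes) and 0 of 22 S-phase windows (0 of the 15 genes). It occurred in 15.2% of all 35116 windows. At least 1 of the E2F cores occurred in 12 of 22 S-phase windows (11 of the 15 genes), against 2.74% of all windows. Among mitotic windows it was 3 of 24 (2 of the 22 genes, CDK1 and NUSAP1). CCAAT occurred in 20 of 24 mitotic windows (18 genes) and 15 of 22 S-phase windows (10 genes), against 34.6% of all windows. CCNB1 and KIF20A had CCAAT without TTTGAA, and in MCM2 TTTCGCGC overlapped its own reverse complement. A match describes the letters in the window and not a bound site.

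Library totals ran from 10994974 to 16233777 counts. Of 9 noradrenergic neuroblastoma markers, 0 had a mean above 10 CPM (counts scaled to the library total) and 5 (DBH, ELAVL4, PHOX2A, STMN2 and TH) had at most 5 counts in any library. ISL1 (8.54 CPM, 70 to 159 counts), GATA3 (8.4 CPM, 50 to 226 counts) and CHGA (1.94 CPM, 9 to 63 counts) were detected, so the list was in part near 0 and in part low. Of 7 kidney-lineage markers, 5 had a mean above 10 CPM, led by HOXA9 at 98.2 CPM. HOXA10 and HOXA11 followed, and EYA1 and PAX2 were just above 10 CPM. LHX1 was low (1.57 CPM, 8 to 45 counts) and PAX8 was near 0 (0.01 CPM, at most 1 count in any library). This list was thus also in part low and in part near 0. Libraries also differed in how their counts followed GC content. The Spearman rho between a library's log2 deviation from the mean of all libraries and the GC content of the gene, over 13676 genes, ran from -0.828 in agoshRNA KD B to 0.787 in gRNA KD A. This value is given beside the results below because it moved with them.

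All 46 genes passed the count filter in every comparison, with 98 to 14061 counts per library. On the scale of CPM per kilobase of transcript, PCNA (the sliding clamp, 143 CPM per kb), UBE2C (a ubiquitin-conjugating enzyme of the anaphase-promoting complex, 143), CDT1 (a licensing factor, 127) and MCM7 (a helicase subunit, 120) had the highest mean levels. CCNE2 (cyclin E2, 5.94 CPM per kb), CENPE and CENPF (kinetochore proteins, 6.88 and 7.92) and UHRF1 (a chromatin factor, 8.12) had the lowest. The median was 27.9 CPM per kb for the mitotic and 39.7 for the S-phase genes. Mitotic genes had the wider spread over libraries. The ratio of the highest to the lowest library was 4.76 in the median of the mitotic genes and 2.42 in that of the S-phase genes, against 3.2 over 13835 genes of any kind (mean count of 50 or more). The widest ratios were 15.4 for TOP2A (topoisomerase II alpha), 11.5 for CENPF and 10.9 for MKI67 (the antigen Ki-67), and the narrowest was 1.55 for GINS2. CPM are shares of a library, so in these bulk samples fewer cycling cells and less of the RNA per cell cannot be told apart.

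The first comparison asked whether depletion of ciRS-7 changed these genes. In each of the 4 setups 0 of the 46 genes passed the test, where DESeq2 called 0 of 17806 genes (agoshRNA), 18371 (gRNA), 18717 (pre-gRNA) and 18513 (syn-gRNA), which is 0.0% in each. None of the 46 had an unadjusted p-value under 0.05 in DESeq2 or in edgeR, which called 0 genes among them as well. The median log2 fold change of the mitotic genes was 0.07, -0.02, 0.06 and -0.005 in that order of setups, and that of the S-phase genes was 0.02, 0.09, -0.06 and -0.04. All genes tested had medians of 0.06, 0.02, 0.01 and 0.00, close to both lists. Single genes lay between -0.26 (PRC1, a spindle protein) and 0.33 (CENPF) among the mitotic genes of the agoshRNA setup, and between -0.18 (AURKB, a mitotic kinase) and 0.25 (CENPE) among those of the syn-gRNA setup. Over both lists and all setups they ran from -0.36 (TK1 in pre-gRNA) to 0.38 (TK1 in agoshRNA).

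The precision differed between setups, as the plot of fold changes with their intervals shows. The median distance from the estimate to either end of the 95% interval of a mitotic gene was 1.40 (log2) in the agoshRNA setup, 0.899 in the gRNA setup and 0.982 in the pre-gRNA setup, and 0.282 in the syn-gRNA setup. Changes of single genes within these intervals were not detectable. In the agoshRNA setup the mitotic median was -0.54 without KD B and 0.43 without NTC B, so single libraries set its sign.

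Groups that did not overlap were few. CCNB1 (cyclin B1) had 67.6, 106.7 and 103.4 CPM in gRNA KD A, B and C and 127.9, 119.1 and 112.4 CPM in the NTC libraries, so every KD library was below every NTC library. Its log2 fold change was -0.28 (SE 0.31, adjusted p = 1 in DESeq2). PRC1 was the other such gene of the 46 in the gRNA setup, where 2.3% of all genes tested had groups that did not overlap. CDC20 was the 1 such gene in the syn-gRNA setup, with 145.8, 156.6 and 137.5 CPM in KD and 161.4, 160.3 and 161.2 CPM in NTC. There the share of all genes was 4.88% and its log2 fold change was -0.14 (SE 0.13, adjusted p = 1 in DESeq2). In the agoshRNA and pre-gRNA setups the count was 0 of 46, against 0.87 and 1.13% of all genes tested.

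Same-letter KD and NTC libraries resembled each other to an unequal degree (r of their deviations 0.36 to 0.97 over 12 pairs). The labels do not say that they are pairs, and the counts in this paragraph by letter take them as such. Within the gRNA setup 7 of 28 mitotic genes were lower in KD in all 3 letters and 1 was higher. Over all 20172 genes tested, 16% were lower and 7.1% higher in all 3 letters of that setup. In the pre-gRNA setup 6 of 18 S-phase genes were lower in KD in all 3 letters, where 16.2% of all genes were. With the letter as a replicate block, 0 of the 46 genes were called in each setup and 0, 0, 8 and 3 had an unadjusted p-value under 0.05 in DESeq2. In the authors' deposited tables all 46 genes stand at an adjusted p-value of 1, whatever the setup.

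A test of whether the KD effect differed between setups called 0 of the 46 genes and 0 of 20172 genes (0.0%, DESeq2, likelihood ratio test over 24 libraries). At an unadjusted p-value under 0.05 there were 0 of the 46 and 17 of all genes, and edgeR called 0 with 25 genes at that level.

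The second comparison set the setups against each other within an arm, first between NTC groups and then between KD groups, which are separate libraries. The median of the mitotic genes was higher and that of the S-phase genes lower in the syn-gRNA setup than in each other setup, in both arms, but few single genes passed the test and not all members went this way. The 28 mitotic genes summed to 4360 to 5196 CPM in the 6 syn-gRNA libraries, and to 2531 to 5243 CPM in the other 18. The 18 S-phase genes summed to 2619 to 3079 CPM in the syn-gRNA libraries and to 2871 to 4505 CPM in the others. The ratio of the 2 sums was 1.61 to 1.78 in the syn-gRNA libraries. Among the others it was 0.586 to 1.51 apart from agoshRNA KD B, which had 1.83. Setup, delivery of the guide and any batch of culture or sequencing cannot be told apart here.

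**Figure D1:**
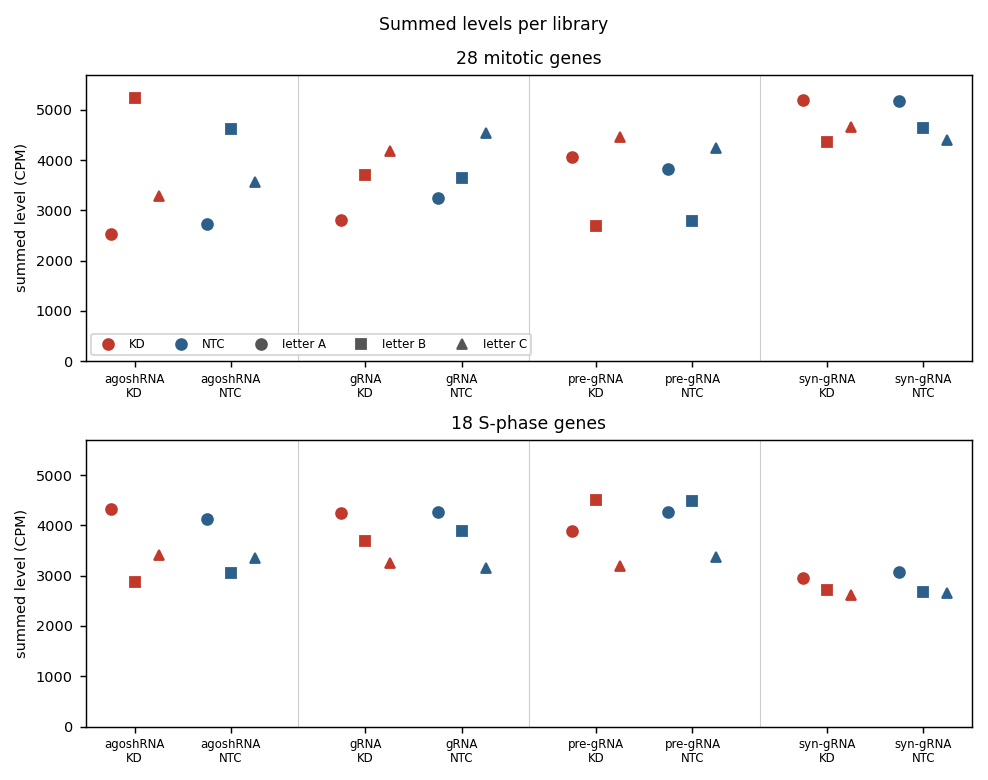
Summed CPM of the 28 mitotic genes (upper panel) and of the 18 S-phase genes (lower panel) in each of the 24 libraries, with KD in red, NTC in blue and the letter as the shape of the point. The 6 syn-gRNA libraries lie close together, and in the plasmid setups the mitotic and S-phase sums run in opposite order over the letters.

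In the model of all 24 libraries, the median log2 difference of the mitotic genes, syn-gRNA minus other, was 0.37, 0.47 and 0.62 against agoshRNA, gRNA and pre-gRNA NTC. The S-phase median was -0.28, -0.31 and -0.44. The KD groups gave 0.32, 0.50 and 0.50 for the mitotic genes and -0.30, -0.36 and -0.42 for the S-phase genes. All genes had medians between -0.06 and 0.01. The syn-gRNA level was the higher in all 6 comparisons for 19 of 28 mitotic genes and 2 of 18 S-phase genes, and the lower in all 6 for 1 mitotic gene and 11 S-phase genes. Against their list in all 6 went HMMR among the mitotic genes (-0.40 to -0.06) and CCNE1 (0.08 to 0.39) and CCNE2 (0.29 to 0.54) among the S-phase genes. Of the other mitotic genes, AURKB and FOXM1 were higher in syn-gRNA in 1 comparison of 6, and BIRC5, CDC20 and PLK1 in 2. BUB1 and NUSAP1 were higher in 4 and AURKA in 5. AURKB, FOXM1, BIRC5, CDC20 and PLK1 have a GC content of 52.2 to 57.9%. Among the S-phase genes CDC6 was higher in 5 comparisons, PCNA in 3, CDT1 in 2, and GINS2 and RRM2 in 1. The comparisons of an arm share the same syn-gRNA libraries, so the 6 are not independent. How many of all genes had the same sign in all 6 is not given here. Against syn-gRNA NTC, DESeq2 called 2 of the 46 genes in agoshRNA NTC (1.84% of all genes), 1 in gRNA NTC (1.32%) and 2 in pre-gRNA NTC (3.25%). Against syn-gRNA KD it called 1 in agoshRNA KD (3.14%), 1 in gRNA KD (1.58%) and 2 in pre-gRNA KD (2.52%). A count of 1 or 2 among 46 is near the share of all genes in each comparison. Without agoshRNA KD B the count against agoshRNA KD was 6, and without pre-gRNA NTC C that against pre-gRNA NTC was 4. Without syn-gRNA NTC B or C or agoshRNA NTC A that against agoshRNA NTC was 0. The shares of all genes in these reduced fits are not given here. Between the agoshRNA, gRNA and pre-gRNA setups 0 of the 46 genes were called in either arm, where the shares of all genes were 0.0496, 0.0347 and 0.0% between NTC groups and 0.0446, 0.0446 and 0.0% between KD groups, and 0 of the 46 had an unadjusted p-value under 0.05 in DESeq2 or edgeR.

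KIF20A (ENSG00000112984.11_3, hg19 chromosome 5, 137514408 to 137523404, plus strand), the kinesin whose promoter is shown above, was called most often. Its levels in syn-gRNA A, B and C were 139.5, 146.6 and 145.3 CPM in KD and 128.2, 163.4 and 138.0 CPM in NTC. In agoshRNA they were 67.8, 78.4 and 49.8 CPM in KD and 84.5, 72.4 and 70.9 CPM in NTC. Every syn-gRNA library was above every other library, since the other 2 setups reached at most 114.8 CPM in gRNA NTC A. The gRNA means were 81.4 ± 16.2 CPM (SD, n = 3) in KD and 99.2 ± 18.2 CPM in NTC, and the pre-gRNA means were 81.8 ± 28.5 and 74.7 ± 22.9 CPM. The log2 difference, syn-gRNA minus other, was 1.13 (SE 0.24, adjusted p = 0.000806 in DESeq2) against agoshRNA KD and 1.01 (SE 0.24, adjusted p = 0.00373) against pre-gRNA NTC. It was called in 5 of the 6 comparisons, with 0.68 (SE 0.24, adjusted p = 0.135 in DESeq2) against gRNA NTC. The call against agoshRNA KD held without each library in turn but was lost in a fit of only the 6 libraries of that pair. The call against pre-gRNA NTC was lost without syn-gRNA NTC B (adjusted p = 0.0998 in DESeq2). The call against agoshRNA NTC was lost without agoshRNA NTC A or C or syn-gRNA NTC B or C (adjusted p of up to 0.199 in DESeq2). That against gRNA KD was lost without any 1 library other than gRNA KD B (up to 0.22), and that against pre-gRNA KD without pre-gRNA KD B or C or syn-gRNA KD B or C (up to 0.109). edgeR called 1 of these 5 differences, against agoshRNA KD (adjusted p = 0.033). KIF20A overlaps BRD8 and CDC23 on the opposite strand and the libraries are not stranded. BRD8 had 80.8 to 100.2 CPM in the syn-gRNA libraries and 37.1 to 88.6 CPM in the others, CDC23 had 52.9 to 94.1 and 26.4 to 106.9 CPM, and their part in the result was not tested.

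CCNB2 (cyclin B2) had 92.7 to 106.7 CPM in the syn-gRNA libraries and 53.0 to 85.4 CPM in the others, again without overlap. It passed the test against pre-gRNA alone, with log2 differences of 0.62 in NTC (adjusted p = 0.0233 in DESeq2) and 0.58 in KD (adjusted p = 0.0419). The NTC call was lost without syn-gRNA NTC B (adjusted p = 0.213 in DESeq2) and without each other library of the pair except syn-gRNA NTC A, and the KD call was lost without any 1 library (adjusted p of up to 0.331, without syn-gRNA KD C). MCM4, a helicase subunit, was the 1 S-phase gene that passed the test. It had 323.9 to 438.1 CPM in the syn-gRNA libraries and 393.4 to 681.2 CPM in the others, so the ranges overlapped. Its log2 difference was -0.63 against agoshRNA NTC (adjusted p = 0.0175 in DESeq2) and -0.58 against gRNA NTC (adjusted p = 0.0409). The first call held without agoshRNA NTC C or syn-gRNA NTC A and the second without syn-gRNA NTC A, and each was lost without any other library of its pair (adjusted p of up to 0.25 and 0.444 in DESeq2, both without syn-gRNA NTC C). edgeR called neither CCNB2 nor MCM4.

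**Figure D2:**
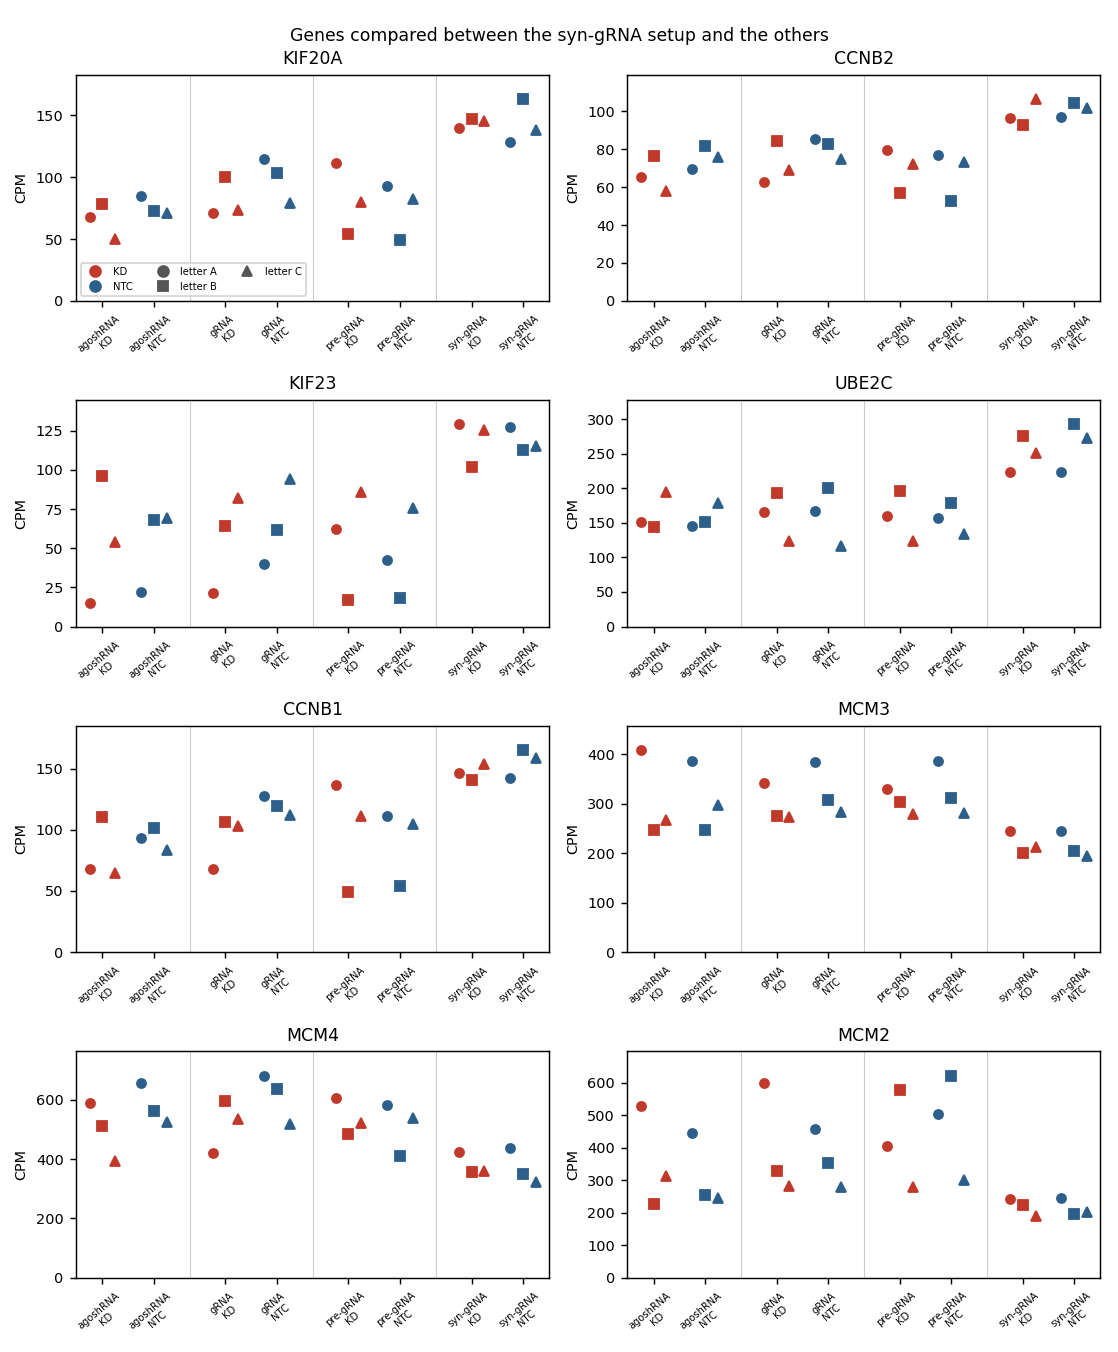
Level in CPM (vertical axis) of 8 genes in the 24 libraries, by setup and arm, with KD in red, NTC in blue and the letter as the shape of the point. KIF20A, CCNB2, KIF23, UBE2C and CCNB1 are higher and MCM3 is lower in all 6 syn-gRNA libraries than in all 18 others, while MCM4 and MCM2 overlap.

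Of the 28 mitotic genes, 5 were higher in all 6 syn-gRNA libraries than in all 18 others, against 2.19% of all 20172 genes. They were KIF20A, CCNB2, CCNB1, UBE2C and KIF23, the last a kinesin of the cytokinetic midzone. KIF23 had 102.0 to 129.1 CPM in the syn-gRNA libraries and 14.9 to 96.4 CPM in the others. UBE2C had 223.2 to 292.6 and 116.8 to 200.1 CPM, and CCNB1 had 140.7 to 165.1 and 48.9 to 136.4 CPM. In none of the 6 comparisons did these 3 genes pass the test (smallest adjusted p of 0.169, 0.183 and 0.0653 in DESeq2). MCM3 was the 1 S-phase gene lower in all 6 syn-gRNA libraries, with 193.4 to 244.5 CPM against 246.2 to 408.3 CPM, where 1.32% of all genes were.

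The GC relation moved with these differences. The rho of library deviation on GC content was -0.663 to -0.251 in the 6 syn-gRNA libraries and spanned both signs in each other setup. The mitotic genes had a median GC content of 42.9% and the S-phase genes one of 51.2%. Each library's GC curve was therefore removed as an offset and the model refitted, which also removes any change of the cells that follows GC content. The syn-gRNA difference became smaller but kept its sign, with mitotic medians of 0.25 to 0.39 and S-phase medians of -0.22 to -0.11 over the 6 comparisons. The counts of called genes rose to 8, 11 and 11 in NTC and to 7, 7 and 11 in KD, against the agoshRNA, gRNA and pre-gRNA groups. The shares of all genes rose as well, to 7.19, 5.97 and 8.69% in NTC and 8.21, 4.98 and 7.74% in KD.

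With GC offsets KIF20A, KIF23 and CCNE1 (cyclin E1) were called in all 6 comparisons, each higher in syn-gRNA. The log2 difference of KIF23 ran from 0.91 to 1.20, that of KIF20A from 0.83 to 1.18 and that of CCNE1 from 0.33 to 0.56. CCNE1 in CPM, without the offset, had 33.6 to 42.7 in the syn-gRNA libraries and 24.7 to 44.5 in the others, so its call rests on the offset. UBE2C was called in 4 comparisons, CDK1 (the kinase bound by cyclin B), CCNA2 (cyclin A2) and TTK (a checkpoint kinase) in 3, ANLN in 2 and TPX2 in 1, each higher in syn-gRNA. Of the genes lower in syn-gRNA, MCM6 was called in 5 comparisons (-0.60 to -0.54), MCM3 and MCM4 in 4, TK1 (thymidine kinase) in 3, MCM2 and E2F1 in 2 and HMMR, a spindle protein, in 1. CCNB2 was no longer called. Thus 4 of the 6 MCM subunits were called lower in at least 1 comparison, and MCM5 and MCM7 in none.

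Other genes of the pathway came from 3 further lists, of 48 S-phase, 52 mitotic and 35 G1 genes tested. Without GC offsets, the S-phase genes called were all lower in syn-gRNA, with 3, 1 and 5 in the NTC comparisons (1.84, 1.32 and 3.25% of all genes) and 3, 2 and 2 in the KD comparisons (3.14, 1.58 and 2.52%), against agoshRNA, gRNA and pre-gRNA. POLA2, a subunit of the primase complex, was called in 5 of the 6 and had 53.9 to 69.8 CPM in the syn-gRNA libraries and 82.9 to 158.8 CPM in the others. RPA2, which coats single-stranded DNA, was called in 4, with 78.5 to 115.4 and 129.8 to 203.7 CPM. UNG (a DNA glycosylase) was called in 3, with 37.0 to 52.5 and 56.0 to 120.1 CPM. GINS1, RFC2 and TIMELESS were the others called. The ranges of GINS1 overlapped (22.02 to 40.86 CPM in the syn-gRNA libraries and 30.37 to 76.34 CPM in the others), and those of RFC2 and TIMELESS did not. The 1 mitotic gene called without GC offsets was CKS2, a CDK subunit, higher in syn-gRNA in 4 comparisons by 0.98 to 1.18 (log2). CKS2 had 222.6 to 301.1 CPM in the syn-gRNA libraries and 96.6 to 191.5 CPM in the others. E2F2, an activator E2F from the G1 list, was lower in 4 comparisons by 1.35 to 1.54 (log2) and was the 1 gene of its list called without GC offsets. Its ranges overlapped, with 17.55 to 28.31 CPM in the syn-gRNA libraries and 25.16 to 84.87 CPM in the others. With GC offsets the shares of all genes called were 7.19, 5.97 and 8.69% in NTC and 8.21, 4.98 and 7.74% in KD. Of the other S-phase genes 8, 7 and 7 were then called in NTC and 8, 4 and 6 in KD, lower in syn-gRNA except for 1 gene against gRNA NTC. Of the other mitotic genes 7, 5 and 6 were then called in NTC and 6, 4 and 5 in KD, higher in syn-gRNA except for 1 against agoshRNA NTC and 3 against agoshRNA KD. Of the G1 genes 5 to 7 were called in each comparison, 2 or 3 of them higher in syn-gRNA. Of the 52 mitotic genes, 3 (CDCA2, CKS2 and PTTG1) were higher in all 6 syn-gRNA libraries than in all 18 others. Of the 48 S-phase genes 0 and of the 35 G1 genes 1 were, against 2.19% of all genes. Lower in all 6 syn-gRNA libraries were 6 of the S-phase, 0 of the mitotic and 0 of the G1 genes, against 1.32% of all genes.

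Kidney-lineage markers summed to 217.7 to 250.1 CPM in the syn-gRNA libraries and 130.8 to 341.1 CPM in the others, noradrenergic markers to 18.4 to 22.1 and 11.5 to 27.3 CPM, and glial and stromal markers to 12.2 to 16.9 and 7.2 to 29.8 CPM. The syn-gRNA range lay inside that of the others for all 3 sums.

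The third comparison was between the letters within a setup, over both arms. More of the 46 genes were called here than in either comparison above, and the mitotic genes did not move as 1 group. TOP2A (ENSG00000131747.14_2, hg19 chromosome 17, 38544768 to 38574202, minus strand), which untangles chromosomes, had 53.8, 829.1 and 292.8 CPM in agoshRNA KD A, B and C and 78.6, 717.5 and 350.7 CPM in NTC. In gRNA it had 122.0, 364.7 and 471.4 CPM in KD and 112.9, 309.9 and 544.4 CPM in NTC. In pre-gRNA it had 281.7, 112.1 and 516.4 CPM in KD and 246.5, 151.4 and 455.3 CPM in NTC. Letter A was thus lowest in agoshRNA and gRNA and letter B in pre-gRNA, in both arms, while syn-gRNA stayed within 370.0 to 622.4 CPM.

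PLK1, a kinase of mitotic entry and exit, ran the other way. It had 242.7, 71.1 and 119.8 CPM in agoshRNA KD A, B and C and 199.6, 76.4 and 90.5 CPM in NTC. In gRNA it had 267.9, 142.3 and 98.6 CPM in KD and 213.0, 162.6 and 102.0 CPM in NTC. In pre-gRNA C it was at 101.7 and 119.0 CPM in KD and NTC and at 211.2 to 268.0 CPM in the other 4 libraries. In agoshRNA and gRNA its highest libraries were those with the least TOP2A.

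The members split by base composition. With a division at a GC content of 50%, chosen after the values had been seen, 22 mitotic genes lay under it and 6 at or over it (UBE2C, BIRC5, FOXM1, AURKB, PLK1 and CDC20). Between agoshRNA letters B and A, 21 of the 22 were higher in B (median log2 difference 1.98) and 6 of the 6 were lower (median -1.18). Between gRNA letters C and A, 19 of the 22 were higher in C (median 1.31) and 6 of the 6 lower (median -1.02). Between pre-gRNA letters C and B, 22 of the 22 were higher in C (median 1.46) and 6 of the 6 lower (median -1.04). In these 3 differences 9 of the 10 S-phase genes with a GC content of 50% or more were lower, with medians of -0.82, -0.68 and -0.89, and the 8 others divided 4 to 4, 4 to 4 and 5 to 3. CCNE2, the S-phase gene of the lowest GC content (36.9%), went with the mitotic genes by 1.94, 1.47 and 1.56. Between syn-gRNA letters C and A no gene differed by more than 0.63 (log2) in either direction. The widest range over the 3 syn-gRNA letters was 0.76, for NDC80 between A and B.

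Across the 46 genes, Spearman rho between the letter difference and GC content was -0.89 (agoshRNA B minus A), -0.91 (gRNA C minus A) and -0.85 (pre-gRNA C minus B). Among the 18 S-phase genes alone it was -0.87, -0.9 and -0.86. Across 13676 genes of all kinds the same differences gave -0.82, -0.81 and -0.78. The other letter pairs gave, across the 46 genes, -0.77 (agoshRNA C minus A), 0.82 (agoshRNA C minus B), -0.88 (gRNA B minus A) and -0.81 (gRNA C minus B). In pre-gRNA they gave 0.69 (B minus A) and -0.91 (C minus A). In syn-gRNA rho was 0.3 (B minus A), 0.03 (C minus A) and -0.65 (C minus B), and across all genes 0.4, 0.15 and -0.52. These are descriptions, since the genes share libraries. In the map of all members ordered by GC content the same libraries are low at the top and high at the bottom.

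**Figure D3:**
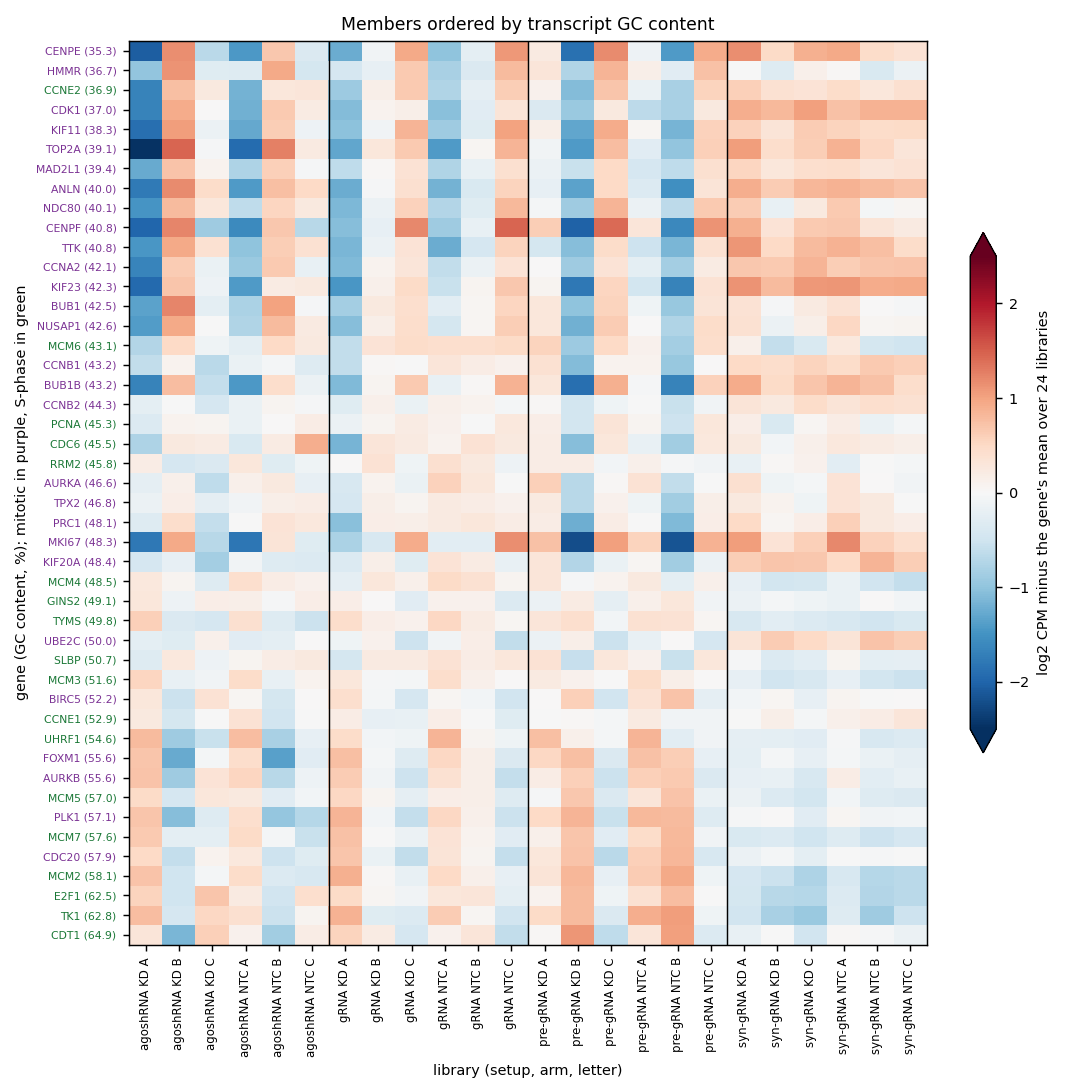
Log2 CPM of the 46 genes (rows, ordered by GC content with the lowest at the top) in the 24 libraries (columns), as the difference from the mean of the gene, in blue for lower and red for higher. In agoshRNA A, gRNA A and pre-gRNA B the upper rows are blue and the lower rows red, and MKI67, at a GC content of 48.3%, looks like the upper rows.

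The test of letters called 37 of the 46 genes in agoshRNA (12 S-phase and 25 mitotic), 30 in gRNA (8 and 22), 43 in pre-gRNA (16 and 27) and 9 in syn-gRNA (2 and 7), by likelihood ratio in DESeq2 with the arm as a covariate. Of all genes, 62.7, 41.9, 67.5 and 9.86% were called. The called mitotic genes under 50% GC were highest in B in agoshRNA (20 of 20), highest in C in gRNA (16 of 16), and lowest in B in pre-gRNA (21 of 21). The called mitotic genes at or over 50% were lowest in B in agoshRNA (5 of 5) and lowest in C in gRNA (6 of 6) and pre-gRNA (6 of 6). With GC offsets the counts were 31, 11, 34 and 11, where 46.6, 17.8, 46.6 and 10.7% of all genes were called. Leaving out gRNA KD C or NTC C gave 17 called genes in gRNA, against 13.2 and 13.7% of all genes. In syn-gRNA the count was 0 without NTC A, against 0.357% of all genes. It was at most 4 without KD A, KD B, NTC B or NTC C (1.19, 2.5, 3.73 and 4.2% of all genes).

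MKI67 (ENSG00000148773.13_3, hg19 chromosome 10, 129894923 to 129924649, minus strand), the source of the proliferation antigen Ki-67, had the smallest adjusted p-value of the 46 genes with GC offsets in all 4 setups. It had 243.7, 31.3 and 298.4 CPM in pre-gRNA KD A, B and C and 216.4, 32.8 and 268.4 CPM in NTC. In agoshRNA it had 42.5, 283.9 and 90.9 CPM in KD and 41.8, 183.7 and 119.0 CPM in NTC. Letter B in pre-gRNA and letter A in agoshRNA were the lowest in both arms. The letters differed with adjusted p-values of 1.62e-91 and 1.25e-24 in DESeq2, and of 1.87e-111 and 4.37e-37 with GC offsets. It was called in all 4 setups with and without the offsets. MKI67 has the longest transcript of the 46 genes (12807 bases), and the rho of library deviation on length was -0.365 and -0.368 in pre-gRNA KD B and NTC B and -0.184 and -0.135 in agoshRNA KD A and NTC A. A part of transcript length in this result was not tested. TOP2A was called in 3 setups with GC offsets and not in pre-gRNA (adjusted p = 0.169 in DESeq2).

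In the other pathway lists, without GC offsets, the test of letters called 40 of 48 S-phase, 48 of 52 mitotic and 27 of 35 G1 genes in agoshRNA, where 62.7% of all genes were called. In gRNA it called 29, 38 and 22 (41.9% of all genes), in pre-gRNA 43, 50 and 32 (67.5%) and in syn-gRNA 6, 6 and 10 (9.86%). Among those averaging 50 or more counts, the widest letter ranges were those of CKAP5 (a microtubule polymerase) in agoshRNA, at 3.13 (log2), of BRIP1 (a DNA helicase) in gRNA, at 2.37, and of CASP8AP2 in pre-gRNA, at 2.93. BTG2, an antiproliferative gene of the p53 pathway, led in syn-gRNA at 0.94.

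Pearson r of each gene with the mean of the other members of its list, over 24 libraries on log2 CPM, was negative for 5 of 28 mitotic genes (AURKB, CDC20, BIRC5, FOXM1 and PLK1, from -0.81 to -0.7) and reached 0.98 for BUB1B, a checkpoint protein. Of the S-phase genes 4 of 18 were negative, led by CCNE2 at -0.7, and MCM3 was the closest to its list at 0.91. The 5 genes outside the list that were most like the mitotic mean were AMD1, PTBP2, SRSF10, FGFR1OP and SOCS5, with r of 0.983 to 0.984 and a GC content of 34.7 to 42.9%. Those most like the S-phase mean were RP11-529K1.3, PDCD7, DCLRE1B, TADA2B and ZSCAN21, with r of 0.945 to 0.959 and a GC content of 47.9 to 54.2%.

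Of the 46 genes, 20 overlap another gene on the opposite strand in the deposited annotation. In libraries without strand information, reads from such pairs cannot be told apart, and how the counting treated them is not given in the sources used here.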

How the data were processed

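Poly(A) RNA of 24 libraries was sequenced without strand information, in reads of 100 nt from both ends. Raw counts per gene were deposited by the authors for hg19, and the submitters' processing notes name Trim Galore, STAR 2.7.3a, featureCounts and DESeq2. The 4 deposited tables hold the same counts. Each also gives the authors' own DESeq2 comparison per the labels, as a log2 fold change and a p-value per gene, and gene lengths. Their 24 columns of normalized counts per table were not used. Columns were matched to groups by name, and libraries are named by the letter in it.

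KD was tested against NTC in each setup with the Wald test of DESeq2 1.42.0 (R 4.3.3) on 6 libraries. Pairs of setups (6 per arm) and the setup by arm interaction were tested in models of 24 libraries, and letters by likelihood ratio with the arm as covariate. A gene entered a fit if 3 or more of its libraries held 10 or more counts, and was called when its p-value, adjusted by Benjamini-Hochberg over the whole fit, was under 0.05. CPM are counts scaled to the library total, to which 0.5 was added before log2. GC content from GENCODE 29 covered 93.2% of genes and all 46 members. GC offsets came from a lowess curve (span 0.3) per library over genes averaging 50 or more counts. Every member could be named; from the other lists, called genes averaging 50 or more counts were named by size of change, up to 10 per comparison; the 5 most alike outside genes were named per list. Promoters were to be shown for CCNB1, CDC20, E2F1 and MCM5, which has no window; those of KIF20A, CCNB2 and MCM2 were added after values were seen. The members and lists were chosen with earlier results of these data known. Same-letter KD and NTC libraries deviated together to an unequal degree (r 0.36 to 0.97 over 12 pairs). The lowest r were 0.42 in gRNA B, 0.45 in syn-gRNA B and 0.36 in syn-gRNA C. Taking them as pairs is an assumption, since the labels state no pairing. Alternatives were edgeR 4.0.16, limma-voom 3.58.1, TMM factors, other count filters, GC offsets, the letter as a block, and other sets of libraries. The scripts were tested on simulated counts.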

Additional observations from a re-analysis of the deposited data

How the results depend on the processing

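Counts of members called between KD and NTC, and in the interaction, stayed at 0 in all alternatives run. With the letter as a replicate block 0 members were called in each setup. At an unadjusted p-value under 0.05 in DESeq2 there were 0, 0, 8 and 3 members, against 0.59, 0.615, 5.4 and 1.3% of all genes. In the interaction with that block there were 2 members at that level, against 2.07% of all genes. Counts against syn-gRNA depended on the setting. Given for agoshRNA, gRNA and pre-gRNA in that order, GC offsets gave 8, 11 and 11 members in NTC and 7, 7 and 11 in KD. edgeR gave 0, 0 and 0 in NTC (6, 6 and 14 members at an unadjusted p-value under 0.05) and 1, 0 and 0 in KD (7, 6 and 9). Fits of the 6 libraries of a pair gave 1, 4 and 8 in NTC and 0, 1 and 1 in KD, and a minimum of 50 counts gave 2 members between agoshRNA KD and syn-gRNA KD. Leaving out each library in turn gave 0 to 2, 0 to 1 and 0 to 4 members in NTC and 1 to 6, 0 to 2 and 0 to 1 in KD, with the highest counts without pre-gRNA NTC C and without agoshRNA KD B. For the edgeR, pair, count-filter and leave-out fits against syn-gRNA the shares of all genes are not given here. KIF20A, CCNB2 and MCM4 kept their direction in each alternative. For letters, GC offsets gave 11 members in gRNA (17.8% of all genes). Leaving out libraries gave 26 to 42 in agoshRNA (36.6 to 60.0% of all genes) and 17 to 43 in gRNA (13.2 to 51.6%). It gave 39 to 43 in pre-gRNA (48.3 to 58.5%) and 0 to 6 in syn-gRNA (0.357 to 5.32%). The cause was not tested. Mitotic medians of KD against NTC ran from -0.54 to 0.43 in agoshRNA when single libraries were left out, from -0.25 to 0.21 in gRNA, from -0.19 to 0.34 in pre-gRNA and from -0.04 to 0.05 in syn-gRNA.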
